A study of Mus musculus with 60 samples.

Results

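The genes described here are the 10 named members of the MHC class I antigen presentation machinery in mouse fibroblasts, followed through partial reprogramming and through inhibition of TGFb family receptors. They are the heavy chains H2-K1 and H2-D1, the light chain B2m, the peptide transporter Tap1 and Tap2, its partner Tapbp (tapasin), the immunoproteasome subunits Psmb8, Psmb9 and Psmb10, and the class I transcriptional activator Nlrc5. They were taken by gene identifier from 2 count tables of 56980 gene identifiers each, and all 10 passed the filter on low counts in both tables.

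Class I molecules show the cell's own protein fragments to cytotoxic T cells. Proteasomes cut proteins into peptides, Tap1 and Tap2 carry the peptides into the endoplasmic reticulum, and tapasin holds the empty heavy chain and B2m beside the transporter until a peptide is bound. Interferons raise these genes together, and they exchange the 3 catalytic proteasome subunits Psmb5, Psmb6 and Psmb7 for Psmb8, Psmb9 and Psmb10. Fibroblasts carry class I molecules at rest, and pluripotent cells are known for low levels of them.

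RNA was sequenced from 60 libraries of cultured fibroblasts in 20 groups of 3. The reprogramming table holds 36 libraries of tail tip fibroblasts that carry a doxycycline-inducible OSKM cassette (Oct4, Sox2, Klf4 and Myc, called 4F) and the reverse tetracycline transactivator. The D/KO line, Ercc1(d/-) and therefore deficient in a DNA repair nuclease, came from male mice of 8 weeks, and the WT line, labelled 4FJ_(+/-)_OCT4-GFP, from female mice of 22 weeks. Each line was sampled at days 0, 2 and 4 of 2 µg/ml doxycycline, with or without VC, which is 50 µg/ml ascorbic acid with 3 µM CHIR99021, a GSK3 inhibitor. The inhibitor table holds 24 libraries. In it, Ercc1(d/-) tail tip fibroblasts without the cassette, from female mice of 4 weeks, received no inhibitor (control D/KO), 0.1 µM Repsox, 0.1 µM Vactosertib, 1 µM DMH-1 or 1 µM A83-01 for 3 days. Repsox and A83-01 inhibit the TGFb receptor ALK5, DMH-1 inhibits the BMP receptor ALK2, and Vactosertib was described as acting on both. The same table holds WT Ercc1(+/+) fibroblasts of tail tip and of skin from female mice of 14 weeks, and a group of the WT 4F line of 22 weeks whose treatment is given as TGFB. The labels do not say whether the 3 libraries of a group are separate animals, so the p-values measure the spread between these libraries, which may be technical. Genotype, age and line, and in the reprogrammable lines sex, change together and cannot be told apart.

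The depth was 16538374 to 18484951 counts a library in the reprogramming experiment and 17102639 to 30599138 in the inhibitor experiment. The marker genes of fibroblasts were all detected in every group. Ercc1 itself ran from 8.04 to 18.6 CPM in the D/KO reprogramming libraries and from 16.9 to 29.1 in the WT ones, and from 20.3 to 20.9 in control D/KO against 13.3 to 21.7 in WT tail tip libraries. The Ercc1 level therefore did not separate the inhibitor table's labels, and at day 0 the libraries of the reprogrammable lines overlapped. Pou5f1 (Oct4) ran from 0.471 to 2.88 CPM at day 0 and from 12.5 to 150 at days 2 and 4. These are bulk samples, so fewer cells of a type and less RNA per cell cannot be told apart.

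Of the 10 genes, 7 lie on chromosome 17, in or near the MHC (GRCm39, coordinates of the deposited table): H2-K1 (34214991 to 34219321, minus strand), H2-D1 (35481706 to 35486475, plus), Tap1 (34406527 to 34416199, plus), Tap2 (34422501 to 34435295, plus), Tapbp (34134873 to 34148266, plus), Psmb8 (34416695 to 34420428, plus) and Psmb9 (34400961 to 34406738, minus). B2m lies on chromosome 2 (121978167 to 121983564, plus), and Psmb10 (106662367 to 106665076, minus) and Nlrc5 (95160984 to 95253900, plus) lie on chromosome 8. Of the exonic bases counted for Psmb9 743 lie on GENCODE M39 exons of Tap1, and 212 of those counted for Tap1 lie on exons of Psmb9, on opposite strands, and H2-K1, H2-D1, Tap2, Psmb8 and Nlrc5 also share exonic bases with a gene on the other strand. Tapbp shares the most, 1547 bases, with Gm19412 and Gm64688 on the other strand and Zbtb22 on its own. Whether the counting used strand is not given in the sources used here, so reads in these stretches cannot be assigned with certainty. H2-K1 and H2-D1 are polymorphic members of a gene family, and the reads were aligned to a C57BL/6J genome. The Ercc1 mice, with and without the cassette, were C57BL6J and FVB hybrids, and the strain of the OCT4-GFP line is not given in the sources used here. The counts of both genes, and above all the balance between them and its comparison between the lines, are therefore uncertain.

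The promoters of the heavy chains and of B2m are shown because these genes are known to be switched on through the same short elements, the Tap1 and Psmb9 promoter because a single stretch serves both genes. RefSeq windows (GRCm38.p6) matched 8 of the 10 members, all but Tap2 and Nlrc5. Each sequence is the 250 bases before the start, on the strand of the gene, at chr17:34000348-34000597 for H2-K1 (minus strand), chr17:35262844-35263093 for H2-D1 (plus) and chr2:122147437-122147686 for B2m (plus). The Tap1 and Psmb9 sequence is the whole 225 bases between their divergent RefSeq starts, chr17:34187331-34187555 (plus strand). In the deposited table the same genes overlap, so its starts differ from these. Capitals mark the interferon-stimulated response element core TTTCNNTT, the NF-kappaB consensus, the element core TGACG, and the CCAAT box, each on either strand, so that ATTGG is a CCAAT box read from the other strand.
H2-K1: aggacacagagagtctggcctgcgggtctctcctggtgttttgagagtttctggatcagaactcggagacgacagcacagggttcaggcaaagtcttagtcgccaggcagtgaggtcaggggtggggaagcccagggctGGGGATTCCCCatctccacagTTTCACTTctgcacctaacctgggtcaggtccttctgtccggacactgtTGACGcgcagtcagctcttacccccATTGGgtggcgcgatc
H2-D1: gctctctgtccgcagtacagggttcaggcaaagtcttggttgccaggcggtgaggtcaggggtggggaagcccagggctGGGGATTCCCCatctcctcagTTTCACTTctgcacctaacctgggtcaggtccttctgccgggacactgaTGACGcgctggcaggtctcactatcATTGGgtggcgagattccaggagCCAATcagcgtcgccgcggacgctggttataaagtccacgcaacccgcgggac
B2m: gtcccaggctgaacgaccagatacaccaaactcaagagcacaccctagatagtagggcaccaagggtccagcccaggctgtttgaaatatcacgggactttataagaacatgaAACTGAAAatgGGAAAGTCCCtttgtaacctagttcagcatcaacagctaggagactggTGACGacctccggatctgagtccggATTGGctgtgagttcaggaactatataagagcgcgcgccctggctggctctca
Tap1 and Psmb9: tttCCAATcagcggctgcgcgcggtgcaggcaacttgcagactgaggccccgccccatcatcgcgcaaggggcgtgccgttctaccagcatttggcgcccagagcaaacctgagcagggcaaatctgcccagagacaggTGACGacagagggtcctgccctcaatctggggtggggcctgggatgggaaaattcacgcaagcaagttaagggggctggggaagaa

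The H2-K1 and H2-D1 windows were near copies: 166 of 190 aligned bases (87.4%) were identical, with an offset of 60 bases between the annotated starts. The TTTCNNTT core was found in 3 of the 8 windows (H2-K1, H2-D1 and B2m) against 21.3% of all 32851 windows of this length. The NF-kappaB consensus was found in the same 3 genes, against 5.0% of all windows. Its hits in H2-K1 and H2-D1 are 2 overlapping matches within the same marked stretch. TGACG was in 5 of 8 (H2-K1, H2-D1, B2m, Tap1 and Psmb9, the last pair sharing 1 match) against 17.8%, and the CCAAT box in 6 of 8 against 33.8%, Tap1 and Psmb9 again sharing 1 match. The gamma-activated sequence TTCNNNGAA was in 1 of 8, Psmb8, against 7.02%. In H2-K1, H2-D1 and B2m the TGACG and the ATTGG that follows it were 25 bases apart, first base to first base. This pair at this spacing, which was chosen after the sequences had been read, occurred in 30 of the 32851 windows (0.0913%), which belong to 26 genes including the nonclassical class I gene H2-M3. A match describes letters only and is not a site shown to be in use.

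Per length of exon (RPKM, counts scaled to exon length and library size), the members differed widely in level within a library. In control D/KO cells B2m was at 257 ± 35 RPKM (SD, n = 3 here and below), H2-D1 at 93.7 ± 6.1, Tapbp at 28.3 ± 1.4 and H2-K1 at 22.7 ± 1.5. Psmb10, Tap2 and Tap1 followed at 7.98, 7.49 and 4.78 RPKM. Psmb8 was at 1.46 ± 0.20 and Psmb9 at 0.275 ± 0.11. Nlrc5, the activator, was the lowest at 0.0508 ± 0.032 RPKM. The order was the same in both reprogrammable lines at day 0, where B2m was at 263 ± 55 (D/KO) and 332 ± 4.6 RPKM (WT). Nlrc5 had 30 counts or fewer in every reprogramming library and 20 or fewer in every inhibitor library except the second DMH-1 library, which had 79. Its comparisons are therefore limited by depth, and its values are given only where a test passed or a library stood apart.

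All 4 inhibitors were applied to D/KO fibroblasts, and the comparison asks how blocking ALK5 or ALK2 moved the machinery. The 3 immunoproteasome subunits rose with every inhibitor, and Psmb9 had the largest log2 fold change of the 10 members in each arm. Psmb9, which replaces Psmb6, was at 1.32, 1.17 and 0.531 CPM (counts relative to the TMM-scaled library size) in the control D/KO libraries. It was at 3.96, 8.24 and 3.42 with Repsox, 4.89, 4.31 and 5.69 with Vactosertib, 2.07, 6.16 and 2.14 with DMH-1, and 6.92, 5.57 and 6.14 with A83-01. Every treated library lay above every control library. The log2 fold change over control was 2.33 ± 0.44 (SE) for Repsox (edgeR quasi-likelihood test, adjusted p = 0.000465), 2.26 ± 0.44 for Vactosertib (adjusted p = 0.000797), 1.76 ± 0.44 for DMH-1 (adjusted p = 0.0155) and 2.59 ± 0.43 for A83-01 (adjusted p = 9.98e-05), the last a 6.01-fold difference.

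Psmb8, which replaces Psmb5, was at 5.66, 4.34 and 4.84 CPM in control D/KO. It reached 12.4, 27.0 and 13.4 with Repsox, 16.0, 14.7 and 22.6 with Vactosertib, 9.68, 29.0 and 8.57 with DMH-1, and 22.1, 13.9 and 18 with A83-01. No treated library overlapped the control libraries, and the log2 fold changes lay between 1.67 ± 0.46 (DMH-1, adjusted p = 0.0298) and 1.86 ± 0.46 (A83-01, adjusted p = 0.00434). Psmb10, which replaces Psmb7, rose from 14.1, 13.1 and 13.7 CPM to 25.7, 61.3 and 29.3 with Repsox, 32.9, 31.9 and 41.6 with Vactosertib, 25.4, 47.7 and 26.3 with DMH-1, and 45.5, 30.7 and 37.2 with A83-01. Its log2 fold changes ran from 1.29 ± 0.38 (DMH-1, adjusted p = 0.0423) to 1.51 ± 0.38 (Repsox, adjusted p = 0.00668).

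B2m, the light chain shared by all class I molecules, was at 254, 212 and 196 CPM in control D/KO and at 399.8, 644 and 418 with Repsox, 434, 439.6 and 452 with Vactosertib, 334, 1069.9 and 407 with DMH-1, and 521, 413 and 468 with A83-01. Treated and control libraries did not overlap. B2m passed the test with Repsox (log2 fold change 1.14 ± 0.35, adjusted p = 0.024), DMH-1 (1.45 ± 0.35, adjusted p = 0.0137) and A83-01 (1.08 ± 0.35, adjusted p = 0.0246), while with Vactosertib it was 1.00 ± 0.35 with an adjusted p of 0.0523 in edgeR and was called by DESeq2. The heavy chains had smaller log2 fold changes than B2m in every arm. H2-D1 was at 253, 224 and 248 CPM in control D/KO, at 349, 333 and 362 with Vactosertib (0.53 ± 0.18, adjusted p = 0.0411), at 316, 500.0 and 319 with DMH-1 (0.65 ± 0.18, adjusted p = 0.0269), at 432, 355 and 369.7 with A83-01 (0.67 ± 0.18, adjusted p = 0.006) and at 306, 387 and 299.6 with Repsox (0.45 ± 0.18, adjusted p = 0.0748). H2-K1 was at 71.8, 64.6 and 63.6 CPM in control D/KO and passed in no inhibitor arm in edgeR, with log2 fold changes from 0.41 ± 0.27 to 0.87 ± 0.27 and adjusted p from 0.0503 to 0.336. Its treated libraries nonetheless all lay above its control libraries, the lowest of them at 77.1 CPM, and DESeq2 called it with DMH-1.

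Of the peptide transporter, Tap2 was at 29.6, 28.1 and 27.2 CPM in control D/KO and passed with Repsox (log2 fold change 0.57 ± 0.18, adjusted p = 0.0319), Vactosertib (0.65 ± 0.18, adjusted p = 0.0177) and A83-01 (0.71 ± 0.18, adjusted p = 0.00562). With DMH-1 it was 0.54 ± 0.18 with an adjusted p of 0.0872, and DESeq2 called it. Tap1 was at 26.7, 25.8 and 26.1 CPM in control D/KO and in edgeR passed with DMH-1 alone, where its libraries were at 36.6, 89.7 and 34.3 (1.03 ± 0.23, adjusted p = 0.00723). With A83-01 Tap1 was at 39.0, 41.3 and 40.0 CPM (0.62 ± 0.23, adjusted p = 0.0526), and DESeq2 called it there as well. In edgeR Tapbp passed with A83-01 alone, at 195, 159.8 and 171 CPM against 108, 100.3 and 98.9 (0.77 ± 0.20, adjusted p = 0.00558). With the other inhibitors its log2 fold changes were 0.55 to 0.58, and DESeq2 called it in all 4 arms. That a gene passed in one arm and not in another does not show that the arms differ, and the differences between arms at equal dose are tested further on.

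**Figure D1:**
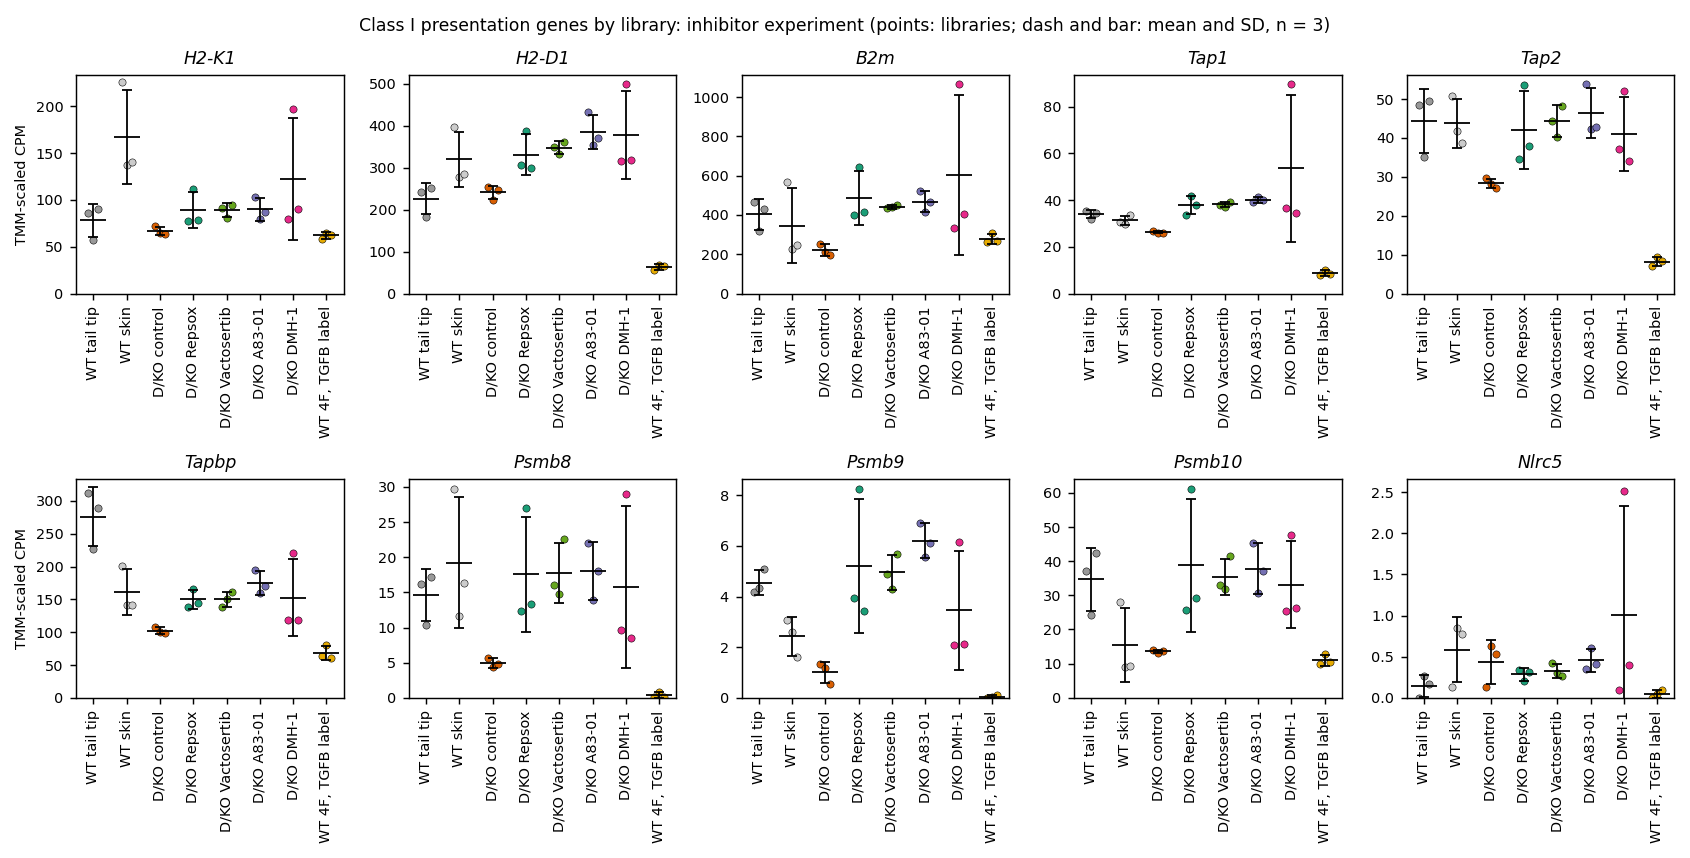
Level of each of the 10 genes (TMM-scaled CPM, linear axes from 0) in the 24 libraries of the inhibitor table; points are libraries, dashes and bars the mean and SD of 3. In the 4 inhibitor groups every library of the 9 genes other than Nlrc5 lies above the control D/KO libraries, and 1 DMH-1 library stands far above the other DMH-1 libraries for B2m, Tap1 and H2-K1.

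Counted over the members, Repsox raised 5 of 10 (background 11% of all tested genes higher and 9.73% lower), Vactosertib 5 (9.37% and 8.7%), DMH-1 6 (4.35% and 2.9%) and A83-01 7 (13.6% and 13.9%), and none fell. The median log2 fold change over the members was 0.56, 0.60, 1.15 and 0.74 in that order, and over all genes tested it was at most 0.02. DESeq2 called 6, 7, 9 and 8 members. These 4 comparisons share the same 3 control libraries. The counts depended on single libraries. Without the second Repsox library 2 members passed, and without the second or the third control library 3 did. For Vactosertib 2 passed without the second control or the third Vactosertib library and 3 without the third control library. For A83-01 between 6 and 7 passed whichever library was left out, the lost call being that of B2m (without the second or the third control library or the first or the third A83-01 library). The H2-D1 call with Vactosertib was lost without any 1 of the 6 libraries, and the Tap2 call with Repsox without any 1 control library or the second Repsox library.

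The DMH-1 result rested on 1 library. The second DMH-1 library had 1069.9 CPM of B2m, 197 of H2-K1 and 89.7 of Tap1, while the other DMH-1 libraries had 334 and 407, 79.5 and 89.9, and 36.6 and 34.3. The same library held 2408 CPM summed over 28 interferon-stimulated genes, and the lowest DMH-1 library held 248. Without it 1 member passed, Tap1, at a log2 fold change of 0.44 ± 0.11 (adjusted p = 0.0303). The other values were then 0.75 ± 0.29 for B2m, 0.88 ± 0.42 for Psmb8, 1.03 ± 0.40 for Psmb9, 0.92 ± 0.39 for Psmb10 and 0.39 ± 0.16 for H2-D1, with adjusted p from 0.182 to 0.314. Without the second or the third control library Tap1 alone passed as well, and without the first control library 3 did.

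Repsox and Vactosertib, both at 0.1 µM, were not told apart. None of the 10 members passed in the comparison between them with edgeR or with DESeq2, and none had an unadjusted p under 0.05 with either (background 0% higher and 0% lower). For Psmb9 the difference, Repsox minus Vactosertib, was 0.07 on the log2 scale with a 95% interval from -0.74 to 0.88, for B2m 0.14 (-0.59 to 0.87), for H2-D1 -0.07 (-0.44 to 0.30) and for Tapbp 0.00 (-0.42 to 0.42). Differences of up to about these bounds were not detectable with these libraries. A83-01 and DMH-1, both at 1 µM and taken as inhibitors of different receptors, gave no passing member either with edgeR or with DESeq2, and 1 member had an unadjusted p under 0.05 with each tool (background 9.67% higher and 10.8% lower). The difference, A83-01 minus DMH-1, was 0.83 for Psmb9 (0.02 to 1.64, adjusted p = 0.141) and -0.42 for Tap1 (-0.90 to 0.06). Without the second DMH-1 library 2 members passed, Psmb9 at 1.56 ± 0.37 (0.77 to 2.35, adjusted p = 0.00573) and Tapbp at 0.56 ± 0.16 (0.21 to 0.91, adjusted p = 0.0233), both higher with A83-01. Without the third DMH-1 library Tap1 alone passed, and it was lower with A83-01. These were the 2 pairs of compounds at matched dose, and p-values were adjusted over all genes within each pair.

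The subunit exchange is also seen as a share. Psmb8 made up 2.31% ± 0.083 of Psmb8 and Psmb5 together, per length, in control D/KO, 6.97% ± 0.53 with Repsox, 7.21% ± 0.72 with Vactosertib and 8.67% ± 0.55 with A83-01. The DMH-1 libraries were at 3.06%, 4.11% and 12.5%. Psmb9 made up 0.691% ± 0.28 of Psmb9 and Psmb6 in control D/KO, 3.28% ± 0.14 with Repsox, 3.16% ± 0.096 with Vactosertib and 4.40% ± 0.17 with A83-01. The DMH-1 libraries were at 1.26%, 1.40% and 4.06%, from lowest to highest. Psmb10 made up 32.9% ± 2.8 of Psmb10 and Psmb7 in control D/KO and between 52.1% and 60.5% with the inhibitors. WT tail tip cells were at 5.69% ± 0.33, 2.62% ± 0.58 and 53.5% ± 1.8 for the 3 shares, with every library above the control D/KO libraries. WT skin cells were at 6.75% ± 0.57, 1.37% ± 0.61 and 28.1% ± 5.9, and their Psmb10 share overlapped that of control D/KO. The shares are of transcripts and say nothing of assembled proteasomes.

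**Figure D2:**
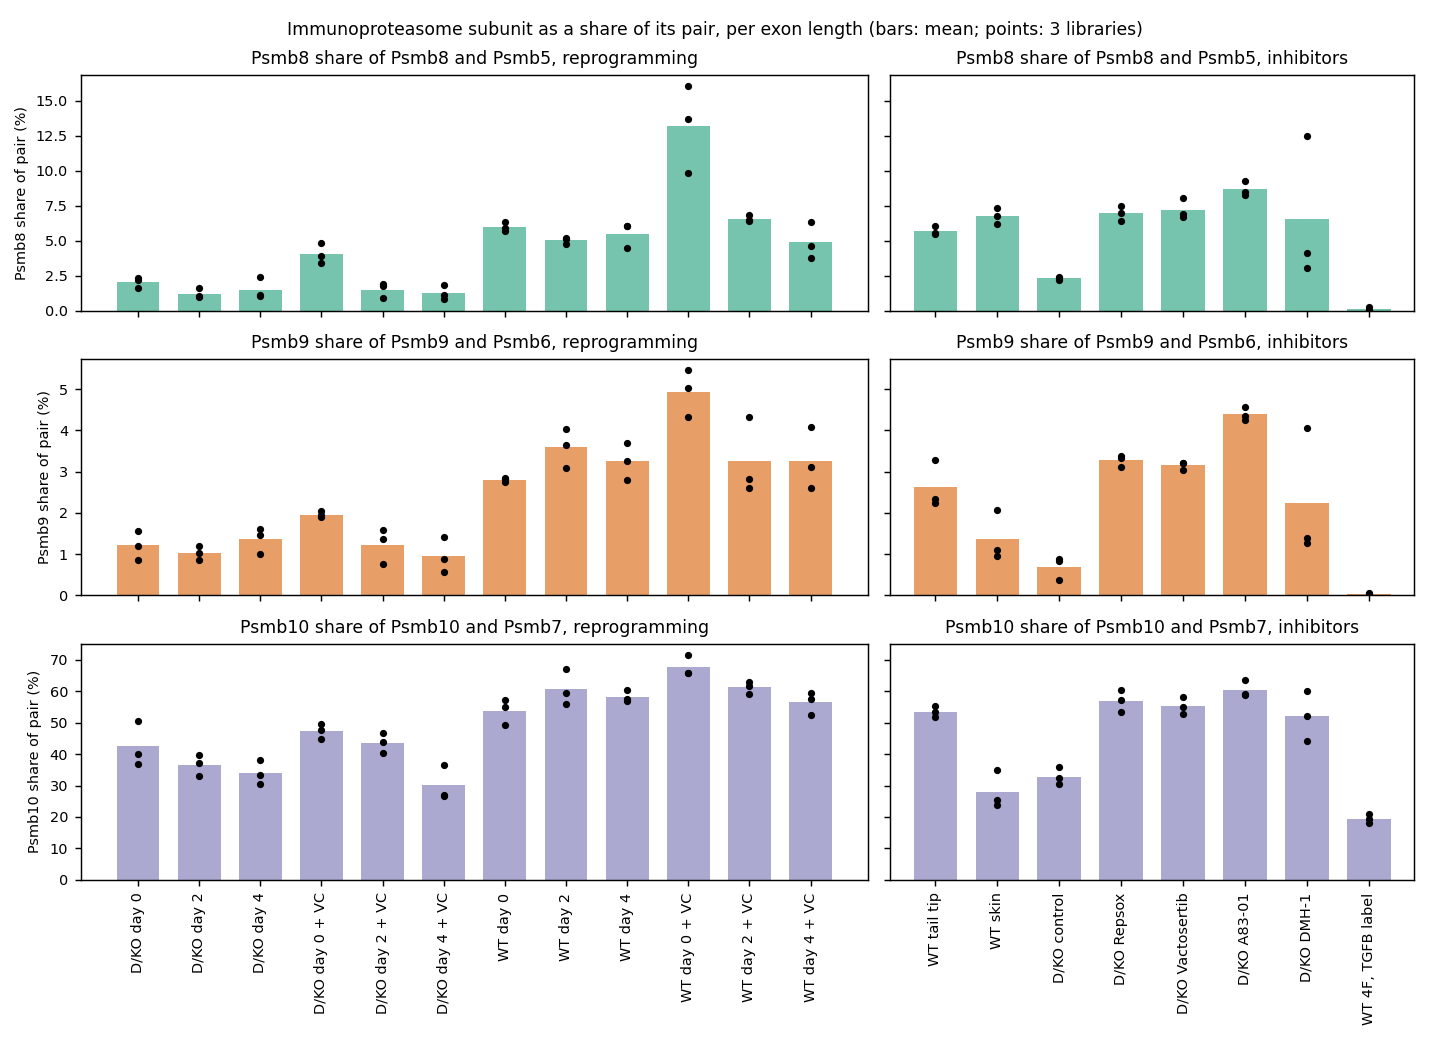
Psmb8, Psmb9 and Psmb10 as a percentage of the pair with Psmb5, Psmb6 and Psmb7, per exon length, by group; bars are means (axes from 0) and points the 3 libraries. In the inhibitor table the D/KO control bars, at 2.31%, 0.691% and 32.9%, lie below the WT tail tip and inhibitor bars. The bars of the TGFB-labelled group are lower in all 3 panels, and the WT skin bar is lower for Psmb10, at 28.1%. The WT day 0 plus VC bars are the highest of the reprogramming table.

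Reprogramming without VC moved single members in D/KO cells. At day 2 of doxycycline 3 members were lower and 1 higher than at day 0 (background 13.2% lower and 14.3% higher), and at day 4 again 3 lower and 1 higher (18.7% and 18.3%). Over both directions the day 4 count was near the background. H2-K1 was at 80.5, 87.2 and 86.3 CPM at day 0, at 56.9, 55.4 and 55.3 at day 2 and at 48.2, 58.8 and 38.6 at day 4, with no overlap with day 0. Its log2 fold change was -0.60 ± 0.15 at day 2 (adjusted p = 0.00209) and -0.80 ± 0.15 at day 4 (adjusted p = 3.9e-05). Tap2 was at 41.5, 29.9 and 26.8 CPM at day 0, at 18.8, 20.4 and 18.2 at day 2 and at 20, 24.6 and 16.1 at day 4, again with no overlap with day 0. It fell by 0.77 ± 0.17 (adjusted p = 0.00048) and by 0.69 ± 0.17 (adjusted p = 0.00107) on the log2 scale. Psmb8 was at 4.24 to 7.09 CPM at day 0 and 2.34 to 3.80 at day 2, and passed at both times with adjusted p of 0.0333 and 0.0465. Its day 4 libraries, at 2.23, 5.59 and 1.67, overlapped those of day 0. The Psmb8 call was lost at day 2 without the first day 0 or the second or the third day 2 library, and at day 4 without the first or the second day 0 or the first or the third day 4 library.

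Tapbp went the other way in these cells. It was at 126, 117 and 106 CPM at day 0, 154, 157 and 144 at day 2 and 144, 163 and 134 at day 4, a rise of 0.38 ± 0.11 (adjusted p = 0.0058) and 0.34 ± 0.11 (adjusted p = 0.0111). The day 4 rise had an adjusted p of up to 0.091 without the third day 0 or the second day 4 library. H2-D1, the most abundant heavy chain in D/KO cells, was at 386, 340.5 and 286 CPM at day 0 and at 307, 337 and 300.3 at day 4, a difference of -0.10 ± 0.12 (adjusted p = 0.55). B2m differed by -0.10 ± 0.19 at day 4 (adjusted p = 0.718). H2-K1 and H2-D1 thus had unlike values over the same 4 days, and the difference between their changes was not tested.

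In WT cells without VC no member passed at day 2 with edgeR or with DESeq2, and 1 had an unadjusted p under 0.05 with each tool (background 4.3% lower and 6.26% higher). At day 4 H2-K1 and Tap2 fell (background 12.8% lower and 11.7% higher), and over both directions this count was near the background. H2-K1 went from 122, 115 and 106 CPM to 79.8, 84.7 and 85.9 (-0.45 ± 0.15, adjusted p = 0.0221) and Tap2 from 36.3, 41.4 and 33.9 to 26.3, 28.7 and 24.2 (-0.50 ± 0.16, adjusted p = 0.0245). The libraries of day 4 lay below those of day 0 for both genes. No member passed without the second day 0, the first day 4 or the third day 4 library, and 1 passed without the first day 0 or the second day 4 library.

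With VC more members fell, measured from day 0 plus VC. In D/KO cells 6 members were lower at day 2 plus VC (background 23.6% lower and 23.8% higher) and 8 at day 4 plus VC (26.2% and 27.9%), and none was higher. H2-K1 went from 115, 136 and 104 CPM to 45.3, 49.5 and 46.4 and then 42.6, 53.9 and 37.2, a final log2 fold change of -1.41 ± 0.15 (adjusted p = 5.64e-10). Tap2 went from 30.6, 34.3 and 25.5 CPM to 9.52, 14.4 and 13.2 at day 4 (-1.29 ± 0.17, adjusted p = 8.24e-08). Psmb8 went from 9.58, 12.7 and 8.21 CPM to 2.91, 2.62 and 2.05, a 4.01-fold fall (adjusted p = 1.1e-06). For these 3 genes no day 4 library reached the lowest day 0 library. Tap1 fell by 1.01 ± 0.22 on the log2 scale (adjusted p = 0.000151), Psmb9 by 1.31 ± 0.33 (adjusted p = 0.00087), Psmb10 by 0.77 ± 0.19 (adjusted p = 0.000742) and Tapbp by 0.77 ± 0.11 (adjusted p = 1.21e-07). B2m, at 267, 329.9 and 195 CPM before and 168, 207 and 192 after, fell by 0.48 ± 0.19 with overlapping libraries (adjusted p = 0.0341), and its call was lost without the first or the second day 0 or the first or the third day 4 library. H2-D1 was at 321, 337 and 341 CPM before and 291, 380.0 and 357 after 4 days, a difference of 0.04 ± 0.12 (adjusted p = 0.798). At day 2 plus VC the D/KO count was 4 without the first or the third day 2 library, whose loss ended the calls of Psmb9 and Nlrc5. The Psmb9 call was also lost without the second day 0 plus VC library and the Nlrc5 call without 3 further libraries. Nlrc5 had passed there at -1.76 ± 0.67 (adjusted p = 0.03), with 3 to 4 counts a library at day 2 plus VC and 5 to 13 at day 0 plus VC.

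In WT cells with VC 5 members were lower at day 2 (background 13.7% lower and 13.8% higher) and 9 at day 4 (22% and 22.7%), all but Nlrc5. The largest fold was that of Psmb8, from 35.7, 18.4 and 30.3 CPM at day 0 plus VC to 6.62, 5.32 and 6.24 at day 4 plus VC, 4.64-fold lower (adjusted p = 4.59e-08). H2-K1 went from 192, 146 and 246 CPM to 51.6, 64.9 and 59.2 (-1.73 ± 0.15, adjusted p = 8.67e-12). Tapbp went from 372, 310.4 and 409.7 CPM to 124, 119.5 and 118 (-1.60 ± 0.11, adjusted p = 1.18e-14). B2m went from 499, 380.0 and 703 CPM to 183, 210.0 and 230.0 (-1.34 ± 0.20, adjusted p = 6.17e-07). H2-D1 went from 234, 177 and 278 CPM to 132, 157 and 159 (-0.62 ± 0.12, adjusted p = 5.8e-05). No library of day 4 overlapped day 0 for any of the 9, and all 9 passed whichever library was left out. At day 2 plus VC H2-K1 had already fallen by 1.17 ± 0.15 on the log2 scale (adjusted p = 8.55e-08) and Tapbp by 0.74 ± 0.11 (adjusted p = 8.96e-07). The count there was 8 without the second day 0 plus VC library and 3 without the third, which ended the calls of B2m and Psmb9. The Psmb9 call was also lost without the first day 0 plus VC or the first or the third day 2 plus VC library.

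The counts depended on the baseline. VC by itself raised 3 of the 10 members in the D/KO line and 8 in the WT line at day 0. Measured from day 0 without VC, 5 members were lower in D/KO cells at day 4 plus VC (background 25.5% lower and 26.6% higher) and 4 in the WT line (18.9% and 20.3%), and none was higher. At day 2 plus VC 2 were lower and 1 higher in D/KO cells (23.4% and 23.3%), and 1 was lower and 3 higher in the WT line (17.8% and 19.5%), where both lower counts and the D/KO higher count did not exceed the background. Against that baseline Tapbp was 0.06 higher in D/KO cells at day 4 plus VC on the log2 scale, and Tap1 was 0.04 higher in WT cells. H2-K1 was low in absolute level as well: WT day 4 plus VC libraries, at 51.6 to 64.9 CPM, lay below the 106 to 122 CPM of WT day 0 without VC.

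VC alone, before doxycycline, was compared with no VC in each line. In WT cells 8 members rose and none fell (background 15.1% higher and 14.4% lower). Psmb8 went from 10.3, 11 and 8.68 CPM to 35.7, 18.4 and 30.3 (1.49 ± 0.27, adjusted p = 4.8e-05). Tapbp went from 181, 189.6 and 172 CPM to 372, 310.4 and 409.7 (1.01 ± 0.11, adjusted p = 2.3e-09). Psmb10 went from 22.6, 23.4 and 25.7 CPM to 63.3, 37.5 and 50.7 (1.08 ± 0.18, adjusted p = 1.21e-05). The libraries of the 2 groups did not overlap for these genes, and the same held for B2m (0.88 ± 0.19, adjusted p = 0.000545), Tap1 (0.94 ± 0.21, adjusted p = 0.000584), Psmb9 (1.16 ± 0.28, adjusted p = 0.00135) and H2-K1 (0.77 ± 0.15, adjusted p = 9.88e-05). H2-D1 passed at 0.44 ± 0.12 (adjusted p = 0.00454) with overlapping libraries, and its adjusted p was 0.103 without the third VC library. Tap2 was at 0.10 ± 0.16 (adjusted p = 0.686).

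In D/KO cells VC alone raised 3 members and lowered none (background 12.1% higher and 14% lower). Tapbp went from 126, 117 and 106 CPM to 189.6, 245 and 187 (0.83 ± 0.11, adjusted p = 1.33e-07), H2-K1 from 80.5, 87.2 and 86.3 to 115, 136 and 104 (0.48 ± 0.15, adjusted p = 0.0133), and Psmb8 from 7.09, 5.04 and 4.24 to 9.58, 12.7 and 8.21 (0.90 ± 0.29, adjusted p = 0.0192). The libraries did not overlap for these genes, but without the second VC library Tapbp alone passed, and the Psmb8 call was also lost without the second or the third day 0 library. The difference between the lines in the effect of VC, a comparison added after the data had been seen, passed for Psmb10 only, at -0.83 ± 0.26 for D/KO minus WT (adjusted p = 0.0236, background 8.35% lower and 6.93% higher). That count was 0 without the first or the third D/KO VC library, the first WT day 0 library or the first WT VC library, and 3 without the second WT VC library.

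At day 4 VC was compared with no VC at the same day. In D/KO cells Tap2 (-0.71 ± 0.17, adjusted p = 0.00134) and Tapbp (-0.28 ± 0.11, adjusted p = 0.0388) were lower with VC, a share near the background (17.7% lower and 16.8% higher), and in WT cells H2-K1 (-0.51 ± 0.15, adjusted p = 0.0102) and Tapbp (-0.34 ± 0.11, adjusted p = 0.0165) were lower (10.4% and 12%). Tapbp was thus higher with VC at day 0 and lower with VC at day 4 in both lines. The Tapbp call in D/KO cells was lost without either of the first 2 libraries at day 4 or the first or the third at day 4 plus VC, leaving 1 member, and in WT cells without the first day 4 or the second or the third day 4 plus VC library. The H2-K1 call was lost without the first WT day 4 plus VC library.

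**Figure D3:**
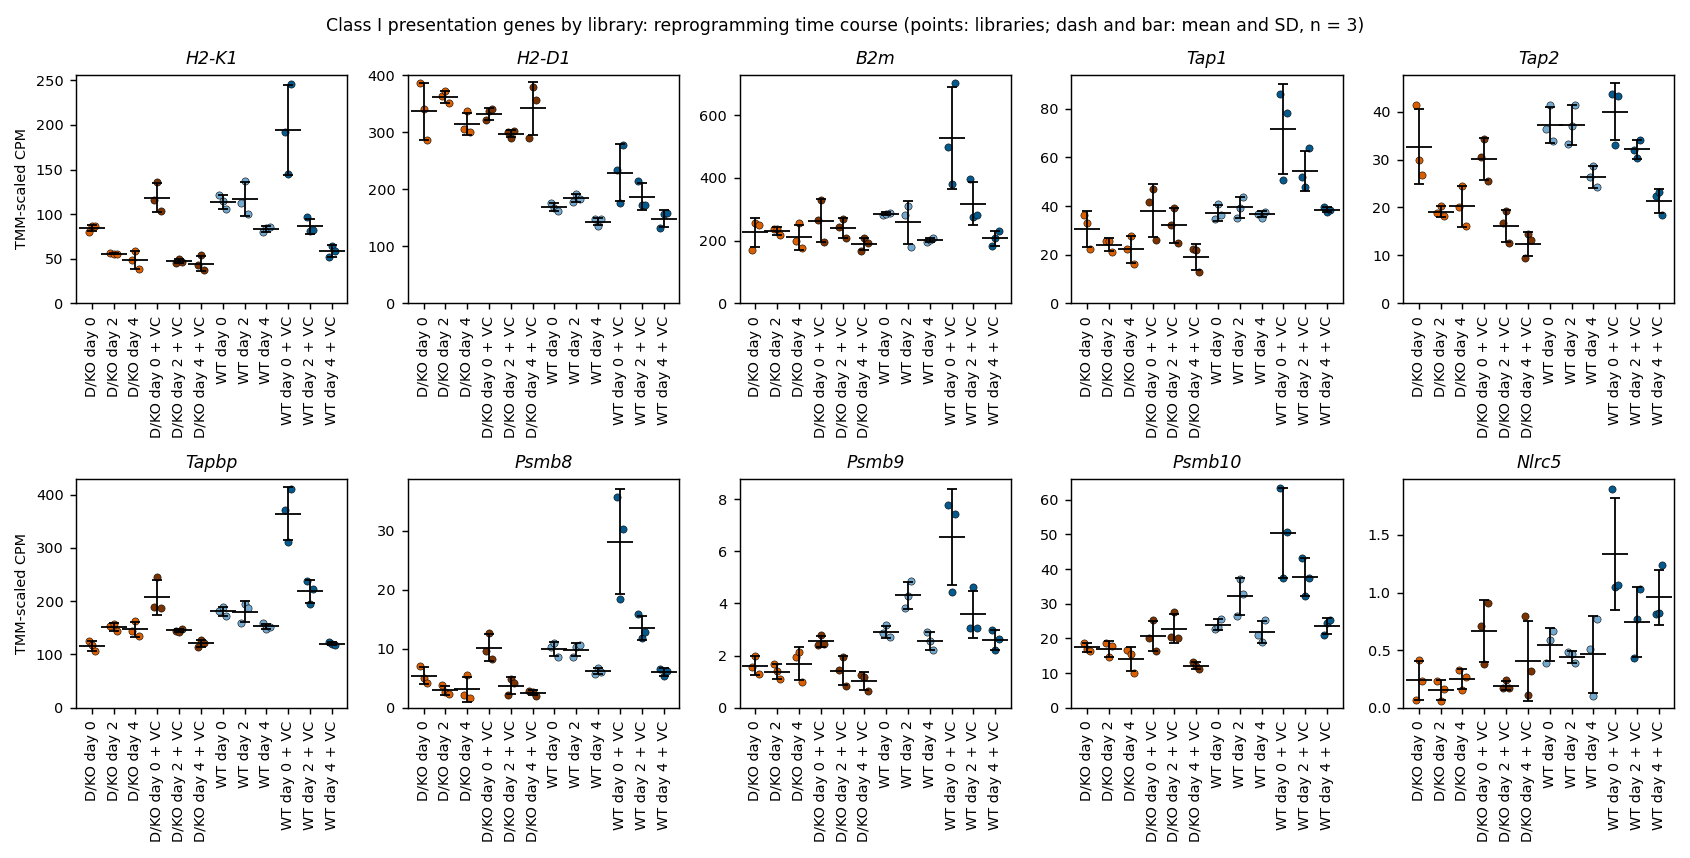
Level of each of the 10 genes (TMM-scaled CPM, linear axes from 0) in the 36 reprogramming libraries; points are libraries, dashes and bars the mean and SD of 3. WT day 0 plus VC has the highest mean of the WT groups for all 10 genes, including Psmb8 at 18.4 to 35.7 CPM, while H2-D1 stays between 286 and 386 in D/KO cells throughout.

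The changes of the lines were set against each other at day 4. Without VC Tapbp alone differed, by 0.58 ± 0.15 for the D/KO minus the WT change (adjusted p = 0.00609, background 7.27% higher and 7.04% lower), and it passed whichever library was left out. With VC H2-D1 differed by 0.67 ± 0.17 (adjusted p = 0.00276), B2m by 0.86 ± 0.27 (adjusted p = 0.0152) and Tapbp by 0.82 ± 0.15 (adjusted p = 6.23e-05), all with the higher change in D/KO cells (background 13.9% higher and 15.5% lower). All 3 fell in WT cells, while in D/KO cells Tapbp and B2m fell and H2-D1 was at 0.04 ± 0.12. The B2m difference was lost without the third D/KO or the third WT library at day 0 plus VC, with adjusted p of up to 0.101. For H2-K1 the difference with VC was 0.32 ± 0.21 (adjusted p = 0.261) and for Psmb8 0.21 ± 0.42 (adjusted p = 0.754).

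Before any treatment the reprogrammable lines differed in 6 members, 5 lower and 1 higher in D/KO than in WT (background 21.1% lower and 22.1% higher). H2-D1 was the exception, at 386, 340.5 and 286 CPM in D/KO and 177, 168 and 162 in WT, 2.00-fold higher (adjusted p = 2.21e-08). Tapbp was at 126, 117 and 106 CPM in D/KO against 181, 189.6 and 172 in WT (-0.64 ± 0.11, adjusted p = 8.58e-06). H2-K1 (-0.43 ± 0.15, adjusted p = 0.0176), Psmb8 (-0.87 ± 0.29, adjusted p = 0.0132), Psmb9 (-0.85 ± 0.30, adjusted p = 0.0224) and Psmb10 (-0.46 ± 0.18, adjusted p = 0.0405) were lower in D/KO, and none of the 6 overlapped. Without the third D/KO library 3 members passed. The H2-K1 call was lost without the first library of either line, that of Psmb9 without the first or the third D/KO or the second WT library, and that of Psmb10 without any 1 of the 6 but the first D/KO library. In the inhibitor experiment 5 members were lower in control D/KO than in WT tail tip cells and none was higher (background 16.6% lower and 17.9% higher). Psmb9 was at 0.531 to 1.32 CPM against 4.17, 4.34 and 5.11 (-2.14 ± 0.44, adjusted p = 0.000574), and Tapbp at 98.9 to 108 against 313, 227 and 289 (-1.43 ± 0.20, adjusted p = 8.95e-06). Psmb8 (-1.56 ± 0.46, adjusted p = 0.012), Psmb10 (-1.35 ± 0.38, adjusted p = 0.00843) and Tap2 (-0.65 ± 0.18, adjusted p = 0.00904) passed as well, and no libraries overlapped for the 5. Without the second control library the adjusted p of Psmb8 was 0.0509. Endothelial markers were at 324 to 365 CPM in control D/KO against 44.7 to 58.1 in WT tail tip cells, and keratinocyte markers at 2.05 to 3.66 against 14.8 to 17.6. Smooth muscle and pericyte markers were at 1246 to 1504 against 894 to 1119, and melanocyte and Schwann cell markers at 6.61 to 9.54 against 2.27 to 2.65. Fibroblast markers were at 79198 to 84476 against 89469 to 91312. The part of these markers in the differences was not tested. H2-D1 there was at 0.10 ± 0.17 (adjusted p = 0.707), so the higher H2-D1 of the D/KO line was measured in the reprogrammable pair only, and the difference between the pairs was not tested. Tapbp, Psmb8, Psmb9 and Psmb10 were lower in D/KO in both tables, in the inhibitor table against WT tail tip cells. Control D/KO was not tested against WT skin cells. The Psmb10 libraries of skin, at 9.09, 9.32 and 28.1 CPM, lay on both sides of control D/KO, at 13.1 to 14.1. The tables were normalized and tested separately.

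**Figure D4:**
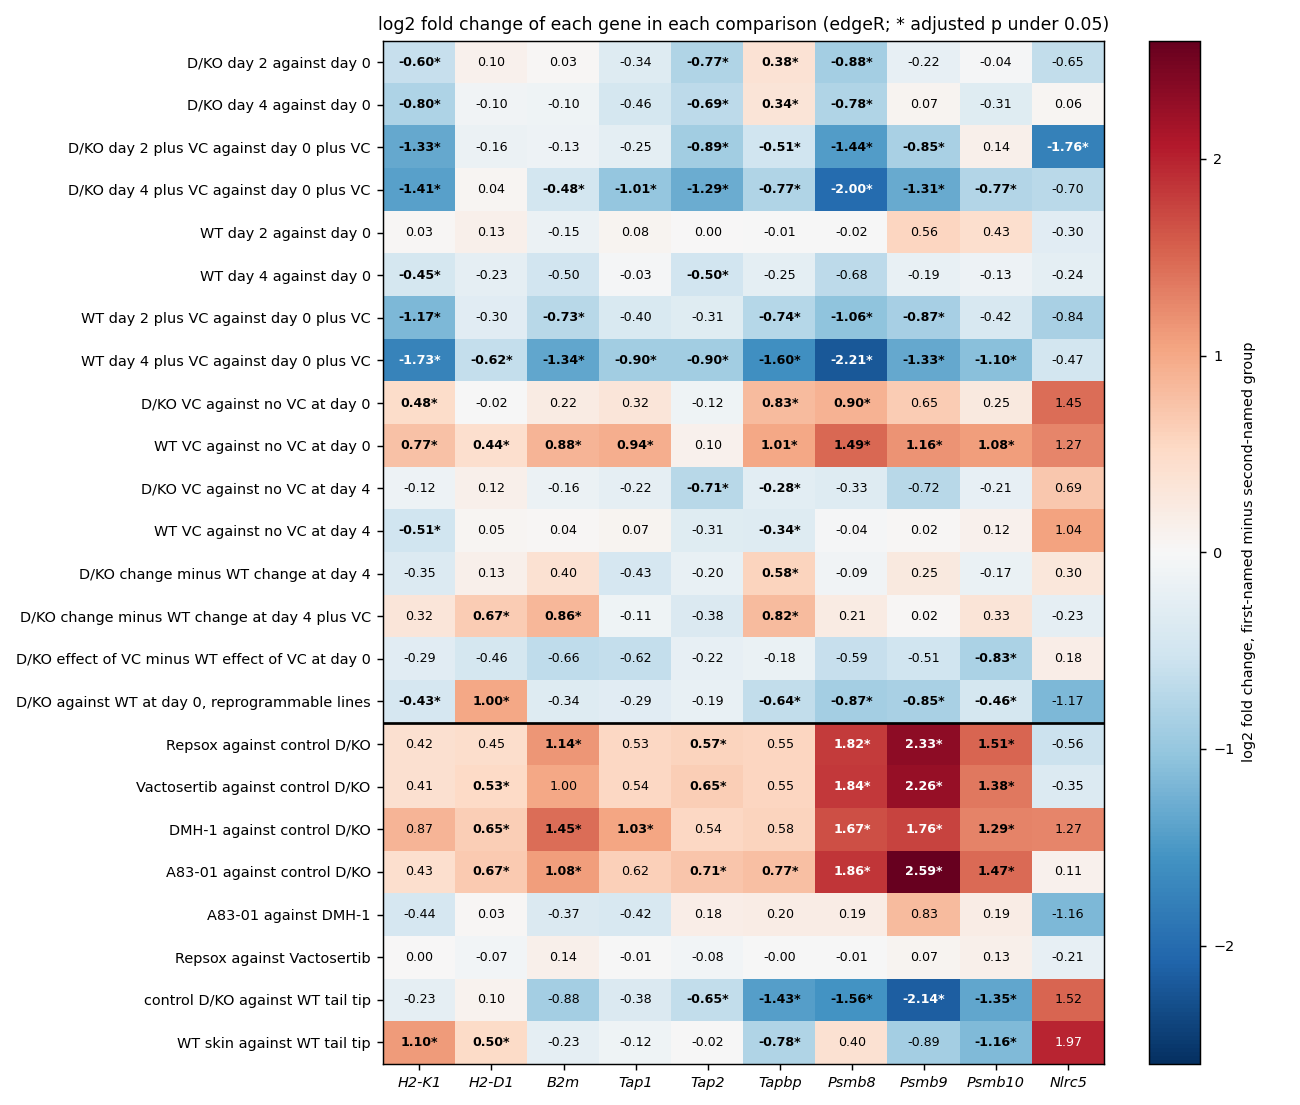
Log2 fold change of each gene in each of the 24 comparisons, first-named minus second-named group, red higher and blue lower; an asterisk marks an adjusted p under 0.05 in edgeR. The comparisons of the 4 inhibitors with control D/KO are red for Psmb8, Psmb9 and Psmb10. Those of day 4 plus VC with day 0 plus VC are blue in both lines for every gene but H2-D1 in D/KO cells, with no asterisk for Nlrc5.

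The balance of the heavy chains set the lines apart at every time. H2-K1 per H2-D1, per length, was 0.592 ± 0.017 in WT cells at day 0 and 0.224 ± 0.041 in D/KO cells. It was 0.553 and 0.511 in WT at days 2 and 4 and 0.135 at both days in D/KO. With VC it went from 0.739 ± 0.032 to 0.408 and 0.345 in WT and from 0.312 ± 0.043 to 0.139 and 0.115 in D/KO. The lowest WT library, at 0.328, lay above all but 1 D/KO library, a day 0 plus VC library at 0.354. In the inhibitor table the ratio was 0.242 ± 0.015 in control D/KO and between 0.205 and 0.271 with the inhibitors, 0.301 ± 0.022 in WT tail tip and 0.455 ± 0.039 in WT skin cells. The WT 4F line had its highest value there, 0.864 ± 0.054, in the group labelled TGFB. Alleles that differ from the reference could change the counts of either gene, and their part in these ratios was not tested. B2m per heavy chain was 2.20 ± 0.24 in control D/KO and rose to between 3.02 and 3.53 with the inhibitors. WT tail tip cells were at 4.12 ± 0.26 and WT skin cells at 2.12 ± 0.64.

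**Figure D5:**
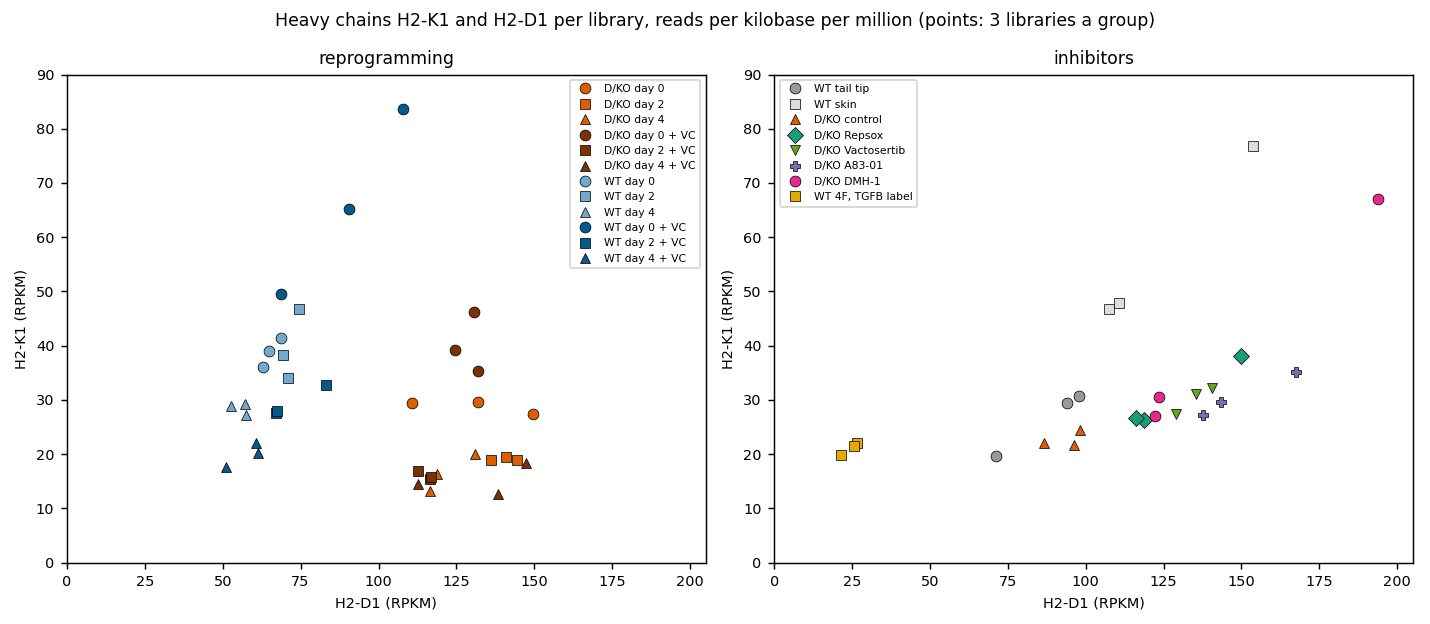
H2-K1 against H2-D1 in each library, in RPKM on linear axes from 0, for the reprogramming table (left) and the inhibitor table (right); points are libraries, 3 a group. In the left panel every D/KO library lies to the right of every WT library, and within each line the day 4 plus VC libraries lie below the day 0 plus VC libraries in H2-K1.

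Skin and tail tip fibroblasts of the same WT genotype differed in 4 members, 2 higher and 2 lower in skin (background 18.1% higher and 16.1% lower), shares near the background. H2-K1 was at 226, 137 and 141 CPM in skin and 86.3, 57.6 and 90.4 in tail tip (1.10 ± 0.27, adjusted p = 0.00264), and H2-D1 at 396, 278 and 286 against 243, 183 and 252 (0.50 ± 0.18, adjusted p = 0.0316). Tapbp was lower in skin, at 201, 141 and 141 CPM against 313, 227 and 289 (-0.78 ± 0.20, adjusted p = 0.00419), and Psmb10 at 28.1, 9.09 and 9.32 against 37.2, 24.3 and 42.4 (-1.16 ± 0.38, adjusted p = 0.0213). The Psmb10 libraries overlapped, and its call was lost without the first or the third tail tip or the second or the third skin library. The H2-D1 call was lost without the second tail tip or the first skin library. Skin cells held more smooth muscle and pericyte marker RNA (3277 to 4744 CPM summed over 5 genes, against 894 to 1119 in tail tip), endothelial marker RNA (186 to 270 CPM over 5 genes, against 44.7 to 58.1), macrophage and leukocyte marker RNA (21.1 to 27.1 CPM over 13 genes, against 14.1 to 18.2) and melanocyte and Schwann cell marker RNA (10.1 to 11.3 CPM over 6 genes, against 2.27 to 2.65). They held less keratinocyte marker RNA (3.27 to 4.42 CPM over 7 genes, against 14.8 to 17.6). The part of these in the differences was not tested.

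The WT 4F group labelled TGFB has no untreated group in its table, so its levels stand as a description. It had the lowest Psmb9 of its table, with 0 to 2 counts a library, and Psmb8 at 0.176, 0.876 and 0.183 CPM. Tap1 was at 7.73, 10.0 and 8.44 CPM and Tap2 at 7.02, 9.36 and 8.30, below every other library of the table. H2-D1 was at 55.2, 68.6 and 66.2 CPM, also the lowest. B2m, at 263, 309.6 and 266 CPM, was not: it lay between control D/KO and WT tail tip cells. B2m per heavy chain was accordingly 7.13 ± 0.49, the highest of all groups. The same line at day 0 in the reprogramming table, normalized separately, had Psmb8 at 8.68 to 11 CPM, Tap1 at 34.6 to 41.0 and B2m at 282 to 289.5. The TGFB group also had the highest smooth muscle and pericyte marker RNA of its table, at 6612 to 7327 CPM over 5 genes against 894 to 1119 in WT tail tip cells, and the same line at day 0 in the other table was at 497 to 577. Its part in these levels was not tested.

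Genes around the members were taken from lists chosen with earlier results of these data known. Of 28 interferon-stimulated genes (25 tested in the inhibitor table), 3 rose with Repsox, 3 with Vactosertib and 5 with A83-01, and none fell. Of all genes tested 11%, 9.37% and 13.6% were higher, so the Repsox and Vactosertib shares were near the background. The median log2 fold change of the list was 1.16, 0.93 and 1.18 in that order. Ifit3, an interferon-induced RNA-binding protein, rose by 2.70 ± 0.76 on the log2 scale with Repsox (adjusted p = 0.0145), 2.30 ± 0.76 with Vactosertib (adjusted p = 0.0405) and 3.20 ± 0.77 with A83-01 (adjusted p = 0.00324). Gbp2, a guanylate-binding protein, rose by 1.11 ± 0.33 (adjusted p = 0.0191) with Repsox. The summed level of the list was 149 to 155 CPM in control D/KO, 251 to 299 with Repsox, 236 to 246 with Vactosertib and 252 to 303 with A83-01. The count was 1 without the first or second control library for Repsox, and 1 without any single library for Vactosertib. With DMH-1 23 of 25 rose, where 4.35% of all genes tested did, and 4 did without the second DMH-1 library and 15 without the third control library. Ifit1 was at 5.80, 9.32 and 199 CPM in the DMH-1 libraries, from lowest to highest, and at 1.48 to 2.21 in control D/KO. The second DMH-1 library was thus high for the members and for this list, and the part of the one in the other was not tested.

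Among 22 tested regulators of class I transcription and interferon signalling, Irf1, an activator that binds class I promoters, rose with every inhibitor, by 0.99 ± 0.12 with Repsox (adjusted p = 4.01e-06), 0.87 ± 0.12 with Vactosertib (adjusted p = 2.85e-05), 1.05 ± 0.12 with A83-01 (adjusted p = 1.29e-06) and 0.65 ± 0.12 with DMH-1 (adjusted p = 0.00171). Irf1 was at 16.1 CPM in control D/KO and at 33.3 with A83-01. Ifngr1, a chain of the interferon gamma receptor, rose by 0.88 ± 0.10 with Repsox, 0.83 ± 0.10 with Vactosertib and 1.07 ± 0.10 with A83-01 (adjusted p = 7.73e-07, 2.14e-06 and 2.91e-08). Over the list 3 regulators rose and 1 fell with Repsox, 2 rose and 1 fell with Vactosertib, 4 rose and 1 fell with A83-01, and 5 rose with DMH-1, where Stat2, which carries the interferon signal to the nucleus, rose by 1.81 ± 0.47 (adjusted p = 0.0218). The shares that rose with Repsox and Vactosertib were near those of all genes tested, 11% and 9.37%. Of all genes 13.6% rose and 13.9% fell with A83-01, and 4.35% rose with DMH-1. The count of regulators that rose with Repsox was 5 without the second Repsox library and 2 without the third, or without the second or the third control library. The DMH-1 count was 1 without the second DMH-1 library or the first or the third control library, and 2 without the second. The 8 interferon ligand genes listed did not pass the filter in either table, and their highest summed level in any library was 0.129 CPM.

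The class I complex borrows general folding enzymes of the endoplasmic reticulum. Of 9 peptide loading and trimming partners 4 fell and none rose with Repsox and with Vactosertib, and 4 fell and 1 rose with A83-01, where 9.73%, 8.7% and 13.9% of all genes tested were lower. Hspa5, the main chaperone of the endoplasmic reticulum, fell by 0.89 ± 0.14 with Repsox (adjusted p = 0.000109), 0.82 ± 0.14 with Vactosertib (adjusted p = 0.000313) and 0.93 ± 0.15 with A83-01 (adjusted p = 4.45e-05). Calr and Canx, the lectin chaperones that hold new heavy chains, fell by 0.51 ± 0.09 and 0.57 ± 0.08 with Repsox (adjusted p = 0.000226 and 2.61e-05). With DMH-1 none passed in edgeR, and 3 had an unadjusted p under 0.05. Of 11 constitutive and accessory proteasome genes none passed in edgeR with Repsox, Vactosertib or DMH-1, where 1, 1 and 0 had an unadjusted p under 0.05, and 1 fell with A83-01, Psme3 by 0.46 ± 0.11 (adjusted p = 0.00389). Of 10 tested nonclassical class I genes 1 rose and 1 fell with Repsox and with Vactosertib, which is near the share of all genes in each direction (11% and 9.73% with Repsox, 9.37% and 8.7% with Vactosertib). Fcgrt, the neonatal Fc receptor heavy chain, rose by 0.81 ± 0.19 with Repsox (adjusted p = 0.00302), and H2-Q7, at under 1 CPM, fell by 2.28 ± 0.63 (adjusted p = 0.0122). The H2-Q7 call with Repsox was lost without the first control or the third Repsox library.

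Other cell types were read through fixed markers. Macrophage and leukocyte markers summed to 15.7 to 19.6 CPM over 13 genes in control D/KO, 25.6 to 36.8 with Repsox, 21.2 to 39.3 with Vactosertib, 23.8 to 35.0 with A83-01 and 15.5 to 19.5 with DMH-1. Of the 9 tested, 4 rose with Repsox and with Vactosertib and 3 with A83-01, where 11%, 9.37% and 13.6% of all genes did, and Cd3e, which defines T cells, was at 0 in every library. Endothelial markers summed to 324 to 365 CPM over 5 genes in control D/KO, 241 to 387 with Repsox, 284 to 365 with Vactosertib, 374 to 460 with DMH-1 and 120 to 165 with A83-01. Fibroblast markers summed to 79198 to 84476 CPM over 10 genes in control D/KO, 40604 to 48204 with Repsox, 49091 to 52569 with Vactosertib, 42383 to 45068 with A83-01 and 68143 to 85772 with DMH-1, the last overlapping control. Smooth muscle and pericyte markers summed to 1246 to 1504 CPM over 5 genes in control D/KO, 498 to 605 with DMH-1 and 875 to 1760 with the other inhibitors. Melanocyte and Schwann cell markers summed to 6.61 to 9.54 CPM over 6 genes in control D/KO, 10.9 to 14.1 with DMH-1, 13.7 to 19.2 with Repsox and Vactosertib and 30.8 to 38.9 with A83-01. Leukocytes and endothelial cells carry high class I levels, and the part of any of these cell types in the members' values was not tested.

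In the reprogramming table the interferon-stimulated list followed the members in WT cells. With VC alone 25 of 27 tested rose and none fell (15.1% of all genes were higher), with a median log2 fold change of 2.40. Isg15, a ubiquitin-like interferon product, was at 3.38 to 4.85 CPM at WT day 0 and at 19.0 to 81.4 with VC (3.59 ± 0.66, adjusted p = 6.68e-05). At WT day 4 plus VC 23 of 27 were lower than at day 0 plus VC (22% of all genes were), with a median of -2.16, and Isg15 fell by 3.91 ± 0.68 (adjusted p = 1.36e-05). Between 21 and 26 rose with VC alone, and between 18 and 25 fell by day 4 plus VC, whichever library was left out. In D/KO cells VC alone raised 1 and lowered 1, and at day 4 plus VC 9 of 27 were higher, a share near the 27.9% of all genes tested, and 3 were lower, against 26.2% of all genes. Oas2, an antiviral synthetase, rose there by 8.56 ± 1.15 (adjusted p = 7.45e-08) from near 0. Without the first D/KO day 4 plus VC library the median of the list was -0.04 in place of 0.96, with 5 genes higher and 4 lower. The test of the difference between the lines passed for 23 of the 27 at day 4 plus VC, all with the higher change in D/KO (13.9% of all genes).

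Of the 22 tested regulators 10 were lower and 4 higher at day 4 plus VC than at day 0 plus VC in D/KO cells, while the WT line had 9 lower and 5 higher. Of all genes tested 26.2% were lower and 27.9% higher in that comparison in D/KO cells, the WT line having 22% and 22.7%. Socs1, the feedback inhibitor of interferon signalling, fell by 2.10 ± 0.19 in D/KO (adjusted p = 5.06e-12) and 2.22 ± 0.18 in WT (adjusted p = 1.49e-12). Irf1 fell by 1.80 ± 0.17 in D/KO (adjusted p = 4.48e-11), from 23.7 to 6.80 CPM. Rfx5, part of the complex that binds class I and class II promoters, rose by 0.61 ± 0.18 in D/KO (adjusted p = 0.00539). Of the loading partners 6 of 9 fell and 1 rose in each line, Calr by 1.07 ± 0.10 in D/KO (adjusted p = 2.95e-11) and 1.15 ± 0.10 in WT (adjusted p = 1.2e-11). Of the 10 tested nonclassical class I genes 8 fell in D/KO and 5 in WT, and none rose, with H2-T23, the mouse Qa-1 heavy chain, falling by 1.19 ± 0.14 (adjusted p = 4.97e-09) and 1.13 ± 0.13 (adjusted p = 9.38e-09). Of the 11 proteasome genes 4 rose and 1 fell in D/KO and 7 fell in WT, with Psme2, a subunit of the interferon-inducible PA28 activator, falling by 0.80 ± 0.13 and 0.85 ± 0.13 (adjusted p = 3.33e-06 and 1.81e-06). With VC alone at day 0, 3 of the 10 nonclassical genes rose in D/KO and 4 in WT, and none fell, where 12.1% and 15.1% of all genes tested were higher. H2-T22 rose by 0.68 ± 0.16 and 0.86 ± 0.16 (adjusted p = 0.00135 and 5.22e-05).

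Cell markers moved in this table too. Fibroblast markers summed to 80071 to 119035 CPM at D/KO day 0 and 183619 to 253190.0 with VC alone, and to 52064 to 53834 and 155632 to 171386 in WT. By day 4 plus VC they were at 33114 to 34280.3 in D/KO and 60940.3 to 72058 in WT. At day 4 without VC they were at 37379 to 38984 in D/KO and 45956 to 48215.5 in WT. Keratinocyte markers rose from 2.06 to 3.48 CPM at D/KO day 0 to 45.8 to 62.6 at day 4 and 342 to 473 at day 4 plus VC. They were at most 16.9 in WT. Endothelial markers were at 709 to 803 CPM at D/KO day 0, 466 to 552 at day 2 and 271 to 315 at day 4. They were at 253 to 297 with VC alone, 149 to 181 at day 2 plus VC and 472 to 671 at day 4 plus VC, and at most 1.64 in WT. Macrophage and leukocyte markers were at 18.7 to 20 CPM at D/KO day 0 and 84.9 to 159 at WT day 0, and at day 4 at 17.6 to 21.5 and 66.3 to 82.1. With VC these markers went from 16.3 to 18 CPM at D/KO day 0 to 9.97 to 12.7 at day 4, and from 78.7 to 129 to 54.6 to 57.4 in the WT line, without overlap. Of the 9 of them tested 2 were lower and 2 higher at day 4 plus VC in D/KO, and 3 lower and 1 higher in WT. Of all genes 26.2% were lower and 27.9% higher in D/KO, and 22% and 22.7% in WT, so the D/KO shares were near the background. Smooth muscle and pericyte markers, summed over 5 genes, were lower at day 4 in every arm. In D/KO cells they were at 1068 to 1726 CPM at day 0, 327 to 418 at day 2 and 213 to 233 at day 4, and with VC they went from 535 to 703 at day 0 to 33.1 to 37.4 at day 4. In the WT line they went from 497 to 577 CPM at day 0 to 62.9 to 77.2 at day 4, and with VC from 552 to 765 to 49.5 to 54.6. Of these 5 genes 4 were called lower in D/KO cells at day 4 and 5 with VC, and in the WT line 3 were lower at day 4 both with and without VC, where 1 was higher without VC. Of all genes 18.7% were lower in D/KO cells at day 4 and 12.8% in the WT line, and 26.2% and 22% with VC. The part of these shifts in the members' changes was not tested.

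Genes outside the list were ranked by how closely their group means of log2 CPM followed the mean profile of the members, z-scored over groups, in both tables. The 5 closest were Tmem9 (r = 0.97 over 12 reprogramming and 0.94 over 8 inhibitor group means), Fuca1 (0.92 and 0.96), Cmtm3 (0.92 and 0.92), Unc5c (0.91 and 0.92) and Gbp2 (0.91 and 0.96). Of the members Psmb8 followed the shared profile closest (0.98 and 0.98), and Psmb9 (0.93 and 0.97) and Tap1 (0.93 and 0.98) came next. H2-D1 did not share the profile in the reprogramming table, at -0.39 over 12 group means, while it was at 0.96 over the 8 of the inhibitor table. Group means within a table share libraries' scaling and lines, and these values describe likeness only. Over all 16 reprogramming comparisons H2-K1 was called lower in 9 and higher in 2, Tapbp lower in 7 and higher in 6, Tap2 lower in 7 and higher in 0, and H2-D1 lower in 1 and higher in 3.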

How the data were processed

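RNA was extracted in triplicate and sequenced as paired ends. The authors trimmed reads with Trim Galore, aligned them to GRCm39 with HISAT2 and counted them per gene with featureCounts of Subread, with quality checked by FastQC (versions not given in the sources used here). The deposited values are raw gene counts in 2 tables, of 36 and 24 libraries, and 0 per-sample columns were left unmapped. Symbols were taken from GENCODE M39 for 56236 of 56980 gene identifiers. Samples were grouped by their labels.

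Each table was fitted once with the edgeR 4.0.16 quasi-likelihood test in R 4.3.3, on TMM-scaled counts of genes passing filterByExpr (minimum count 10, minimum total 15), which left 15832 and 15652 genes. Tests were two-sided, p-values were adjusted by Benjamini-Hochberg over all genes tested in a comparison, and an adjusted p under 0.05 was called. The pipeline was tested on simulated data. Alternatives were DESeq2 1.42.0, RLE size factors, other filters, only the groups compared, median centring, another baseline, and leaving out each library. Between libraries of a group the variance was a median 12.8 and 24.1 times the counting noise, and at lowest 3.18 and 4.08 times. No libraries within a group were therefore duplicates, and libraries of different groups were not compared in this way. The members and lists were chosen with earlier results of these data known. Named are all 10 members, up to 4 called genes of largest change per list and comparison, the 5 genes most like the members, and label checks. The effect of VC by line and the list counts without a library were added after the data had been seen.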

Additional observations from a re-analysis of the deposited data

Results flagged for a closer look

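Differences between the lines in the size of a change were tested directly for the 10 genes in 3 comparisons, and 1, 3 and 1 of the 10 passed, in 4 genes. Of all genes tested 7.27% were higher and 7.04% lower in the first, 13.9% and 15.5% in the second and 6.93% and 8.35% in the third, so over both directions the counts were near the background. At day 4 without VC the change of Tapbp was higher in D/KO than in WT cells by 0.58 ± 0.15 on the log2 scale (SE, edgeR adjusted p = 0.00609). At day 4 plus VC the changes of Tapbp (0.82 ± 0.15, adjusted p = 6.23e-05), H2-D1 (0.67 ± 0.17, adjusted p = 0.00276) and B2m (0.86 ± 0.27, adjusted p = 0.0152) were higher in D/KO cells. The effect of VC at day 0 on Psmb10 was lower in D/KO cells by a difference of -0.83 ± 0.26 (adjusted p = 0.0236). The B2m difference was lost without the third D/KO or the third WT library at day 0 plus VC, and the Psmb10 difference without the first or the third D/KO VC library, the first WT day 0 library or the first WT VC library. The groups hold 3 libraries each, too few for a test of single outlying libraries. Line, sex and age change together with genotype here and cannot be told apart.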

How the results depend on the processing

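No paired analysis was possible because the library numbers are consecutive and are not shared between groups. Of 96 called values of single genes, all kept direction and call with DESeq2 and RLE size factors. Median centring kept the direction of all 96, and their calls were not retested there. Without a filter 93 kept their call and 3 lost it, and with only the groups compared 89 of 95 kept it. Of 606 values with a library left out 494 kept their call, 112 lost it and 0 changed direction. The number of members called moved by over 1.5 times as follows. With day 0 without VC as baseline it was 3 (D/KO day 2 plus VC), 5 (D/KO day 4 plus VC) and 4 (WT day 4 plus VC), and the direction turned for Tapbp in D/KO cells at day 2 (0.32) and day 4 (0.0578), for B2m (0.15), Tapbp (0.27), Psmb8 (0.44) and Psmb9 (0.30) in WT cells at day 2, and for Tap1 in WT cells at day 4 (0.0421), since VC alone had raised the baseline. Without a filter the count was 4 at WT day 4, 1 for VC in D/KO at day 4 and 3 for the effect of VC by line, where DESeq2 gave 2. With only the groups compared it was 6 at WT day 4, 1 for VC in D/KO at day 4, 9 for Vactosertib and 2 for skin. With at least 10 counts in every sample it was 3 for control D/KO against WT tail tip. The cause of these moves was not tested. When single libraries were dropped the count ran from 3 to 4 (D/KO day 2), 3 to 4 (D/KO day 4), 4 to 5 (D/KO day 2 plus VC), 7 to 8 (D/KO day 4 plus VC), 0 to 0 (WT day 2), 0 to 2 (WT day 4), 3 to 8 (WT day 2 plus VC), 9 to 9 (WT day 4 plus VC), 1 to 3 and 7 to 8 (VC at day 0, D/KO and WT), 1 to 3 and 1 to 2 (VC at day 4), 1 to 1, 2 to 3 and 0 to 3 (differences between lines at day 4, at day 4 plus VC and in VC), 3 to 5 (lines at day 0), 2 to 5 (Repsox), 2 to 4 (Vactosertib), 1 to 8 (DMH-1), 6 to 7 (A83-01), 0 to 2 (A83-01 against DMH-1), 0 to 0 (Repsox against Vactosertib), 4 to 6 (control D/KO against WT tail tip) and 3 to 3 (skin). Depth limits Nlrc5 and, in the TGFB-labelled group, Psmb9.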
